A study of Mus musculus with 2 samples.

Results

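Described here are the 10 genes that carry the ChREBP and SREBP1 arm of hepatic de novo lipogenesis (DNL): the transcription factors *Mlxipl* and *Srebf1*, the glycolytic gene *Pklr*, and the lipogenic genes *Thrsp*, *Acly*, *Acaca*, *Acacb*, *Fasn*, *Scd1* and *Elovl6*. They were picked by symbol from the 32285 genes counted, and each was found once. Liver nuclei came from male C57BL6/J mice with metabolic dysfunction–associated steatohepatitis (MASH). Both groups had received for 5 months, from an age of 10 to 12 weeks, a MASH-inducing diet in which cholesterol was 2%, fat gave 40% of the calories and fructose 20%. The control group was *Themis* flox/flox (Flox), and the other was *Themis* Alb-Cre (HKO), in which the albumin promoter drives Cre in hepatocytes so that a floxed *Themis* is deleted there. Single-nucleus RNA-seq (snRNA-seq) gave 1 library per genotype, each from pooled livers of several mice, so there was no replicate and no test between genotypes. Genotype and preparation cannot be told apart.

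ChREBP, encoded by *Mlxipl*, is activated by sugar metabolites and works as a dimer with the product of *Mlx*. SREBP1, encoded by *Srebf1*, is held in the endoplasmic reticulum by SCAP and INSIG proteins until it is cleaved, and its own transcription is raised by insulin and by liver X receptors. Together these factors drive the genes that turn glucose and fructose carbon into fatty acids: pyruvate kinase (*Pklr*) feeds the mitochondria, ATP citrate lyase (*Acly*) returns acetyl-CoA to the cytosol, acetyl-CoA carboxylases make malonyl-CoA, fatty acid synthase (*Fasn*) builds palmitate, and *Elovl6* and *Scd1* lengthen and desaturate it.

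RefSeq promoter windows on GRCm38.p6, from 250 bases before to 50 bases after a transcription start, were available for 9 of the 10 genes, with 13 starts in all. *Scd1* was without one. The 250 bases before 5 of the starts are shown as examples, not picked by a fixed rule. Those of *Pklr* and *Mlxipl* hold the ChREBP half-sites and the sterol response element named below. Those of *Thrsp*, *Fasn* and *Srebf1* hold only NF-Y or Sp1 motifs. Each sequence shown reads 5′ to 3′ in the direction of the gene, and capitals mark the motifs named below. The *Pklr* window is chr3:89136373-89136622 (plus strand), that of *Thrsp* chr7:97417551-97417800 (minus), that of *Fasn* chr11:120824548-120824797 (minus), that of *Mlxipl* chr5:135106641-135106890 (plus) and that of *Srebf1* chr11:60210472-60210721 (minus).
*Pklr*, start 2: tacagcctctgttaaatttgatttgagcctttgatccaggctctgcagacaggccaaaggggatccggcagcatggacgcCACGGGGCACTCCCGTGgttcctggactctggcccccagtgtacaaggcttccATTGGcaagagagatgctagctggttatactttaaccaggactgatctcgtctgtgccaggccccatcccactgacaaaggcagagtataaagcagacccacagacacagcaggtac
*Thrsp*: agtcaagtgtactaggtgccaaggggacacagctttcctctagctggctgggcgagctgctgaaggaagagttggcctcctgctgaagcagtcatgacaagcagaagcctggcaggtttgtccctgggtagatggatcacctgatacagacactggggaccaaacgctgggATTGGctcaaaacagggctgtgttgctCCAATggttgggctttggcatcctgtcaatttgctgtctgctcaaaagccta
*Fasn*: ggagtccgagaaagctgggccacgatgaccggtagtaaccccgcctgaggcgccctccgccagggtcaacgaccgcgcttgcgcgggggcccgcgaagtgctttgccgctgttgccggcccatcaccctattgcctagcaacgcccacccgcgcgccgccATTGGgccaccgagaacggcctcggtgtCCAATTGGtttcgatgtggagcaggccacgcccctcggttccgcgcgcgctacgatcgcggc
*Mlxipl*, start 1: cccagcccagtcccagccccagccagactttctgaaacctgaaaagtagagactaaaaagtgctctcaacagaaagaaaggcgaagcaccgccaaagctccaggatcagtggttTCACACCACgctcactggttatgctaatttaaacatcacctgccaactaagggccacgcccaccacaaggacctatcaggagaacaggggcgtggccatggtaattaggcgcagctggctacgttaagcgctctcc
*Srebf1*, start 3: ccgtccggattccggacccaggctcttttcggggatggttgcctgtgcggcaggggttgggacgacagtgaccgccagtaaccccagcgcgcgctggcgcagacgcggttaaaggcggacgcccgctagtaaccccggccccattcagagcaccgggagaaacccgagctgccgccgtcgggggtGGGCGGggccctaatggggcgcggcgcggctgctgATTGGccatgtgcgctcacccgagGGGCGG

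Both strands were searched for 5 motifs. The paired half-sites bound by ChREBP, CACGNG and CNCGTG with 5 bases between them, were found in the *Pklr* window alone among the 13, from 170 bases before the start. The pair was rare: 15 of all 32851 windows held it (0.0457%). The sterol response element TCACNCCAC was found at start 1 of *Mlxipl*, 136 bases before it, and in 1.24% of all windows. The E-box CACGTG occurred at start 2 of *Mlxipl*, 98 bases before it, and in 7.15% of all windows. The NF-Y motif CCAAT was in 8 of the 13 windows, against 37.4% of all windows, with 3 copies at *Fasn*, 2 of them overlapping, and 2 at *Thrsp*. The Sp1 motif GGGCGG was in 4 of 13 windows, against 35.7%. The *Acaca* and *Elovl6* windows held none of the 5, which says only that these letters are not in these windows. The only windows of *Acaca* and *Acacb* lie inside the gene, downstream of its annotated first base. A match is a description of the letters and not a site in use.

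The library labelled Flox held 9363 barcodes and 58171337 unique molecular identifiers (UMIs), that labelled HKO 10748 barcodes and 40475938 UMIs, and 27 barcode sequences occurred in both. After filtering, 8659 and 9801 nuclei were kept, of which 5814 and 4390 were called hepatocytes from their markers, at median depths of 7454.5 and 5826.5 UMIs. All 8 hepatocyte markers were higher in them than in the other nuclei of either library. The summed markers of each of 8 other cell types stood in hepatocytes at 0.0149% to 1.89% of their level in the type they mark. Nuclei were called by these same markers, so both values were largely set by the rule and are no independent check. *Themis*, the targeted gene, was counted at 163 CPM (UMIs of a gene per 1000000 UMIs of the same nuclei, 95% interval 159–167) in Flox-labelled hepatocytes and 250 (244–256) in HKO-labelled ones. That goes against the label, although 3′ counts outside the deleted exons would not check it. The libraries are therefore named by their labels throughout, and if the labels were exchanged every ratio between them would be inverted. Macrophages made up 6.37% and 12.7% of nuclei and hepatic stellate cells 9.46% and 11.5%. Intervals are at the 95% level throughout and hold counting error alone, without the spread between mice.

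Of the 10 genes, 8 were at least 1.5-fold higher in the hepatocytes of the library labelled HKO, and none was 1.5-fold lower. Among all 11221 genes with at least 200 UMIs in these nuclei, 7.19% were higher by that factor and 9.77% lower. The median log2 ratio of the 10 genes was 0.92, against −0.02 over all genes tested. The exceptions were *Mlxipl* and *Elovl6*. In the following, levels are CPM in hepatocyte nuclei, Flox-labelled library first. They count 3′ ends, so that the several starts of *Srebf1*, *Pklr* and *Mlxipl* cannot be told apart, and levels of different genes are not compared.

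**Figure D1:**
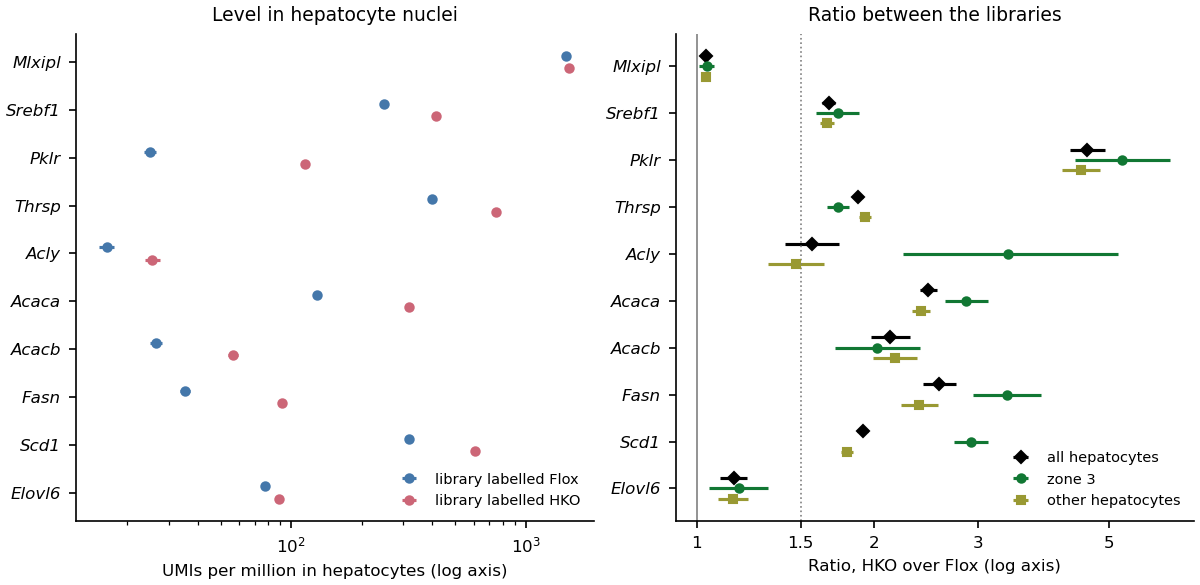
Left, level of each gene in hepatocyte nuclei (CPM, log axis) in the library labelled Flox (blue) and that labelled HKO (red). Right, ratio of HKO over Flox (log axis) in all hepatocytes (black diamonds), zone 3 (green circles) and the other hepatocytes (olive squares), with lines at 1 and 1.5. Bars are 95% counting intervals. *Pklr* lies farthest to the right at 4.58 and *Mlxipl* nearest to 1 at 1.04.

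The regulators differed from each other. *Mlxipl* (chr5:135089890-135138382, plus strand) was at 1482 (1471–1493) and 1536 (1521–1551) CPM, a ratio of 1.04 (1.02–1.05), close to the middle of all genes. *Srebf1* (chr11:60199089-60222581, minus strand) was at 248 (244–253) and 415 (407–423), a ratio of 1.67 (1.63–1.72). Thus the transcript of the SREBP1 factor was higher in the library labelled HKO by more than the fold used, and the transcript of the ChREBP factor was not. Exons of *Srebf1* overlap the microRNA gene *Mir6922* on the same strand.

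*Pklr*, the liver and red cell pyruvate kinase and the textbook target of ChREBP, had the largest ratio of the 10 and ranked 33 among the 11221 genes for HKO over Flox. Its level was 25.03 (23.6–26.5) with the Flox label and 115 (111–119) with the HKO label, a ratio of 4.58 (4.28–4.91), or 0.218 taken the other way round. It lies at chr3:89136142-89146784 on the plus strand, and the window printed above with the paired half-sites belongs to its start 2.

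The enzymes of fatty acid synthesis followed. *Acaca* and *Acacb* encode acetyl-CoA carboxylases 1 and 2, the first supplying malonyl-CoA for synthesis and the second making it at the mitochondrion, where it restrains fatty acid oxidation. *Acaca* (chr11:84129672-84401651, plus strand) was at 129 (126–132) and 318 (311–325), a ratio of 2.47 (2.39–2.55). *Acacb* (chr5:114146535-114250761, plus strand) was at 26.6 (25.1–28.1) and 56.6 (53.8–59.5), a ratio of 2.13 (1.97–2.30). Both carboxylases were thus higher in the library labelled HKO, with intervals far apart. *Fasn* (chr11:120805846-120824547, minus strand) was at 35.4 (33.7–37.2) and 91.3 (87.7–94.9), the second largest ratio at 2.58 (2.42–2.74). *Acly* (chr11:100476353-100528000, minus strand) was at 16.3 (15.2–17.5) and 25.6 (23.8–27.6), a ratio of 1.57 (1.41–1.74) that stood nearest to the 1.5-fold line. It was 1.47 when zone 3 nuclei were left out, and 2.04 when every nucleus with a UMI of another type's markers was left out.

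*Thrsp* encodes a small nuclear protein that promotes lipogenesis without being an enzyme. It was at 400 (394–405) and 749 (739–759), a ratio of 1.87 (1.84–1.91), at chr7:97412938-97417730 on the minus strand. The pair that modifies the product palmitate went apart. *Scd1* (chr19:44394455-44407879, minus strand), which introduces the double bond of oleate, was at 318 (313–323) and 608 (599–617), a ratio of 1.91 (1.87–1.95). *Elovl6* (chr3:129532355-129638495, plus strand), which elongates palmitate to stearate, was at 77.1 (74.5–79.6) and 89.1 (85.6–92.7), a ratio of 1.16 (1.10–1.22). The *Elovl6* intervals did not overlap, yet its ratio stayed under 1.5 in each of 10 alternative settings (1.09 to 1.17).

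Detection per nucleus was compared after each nucleus was thinned at random to 2000 UMIs, which left out 66 and 185 shallower hepatocytes. *Mlxipl* was detected in 92.3% (91.6–93.0) and 93.4% (92.6–94.1) of hepatocyte nuclei. The higher levels in the library labelled HKO went with more positive nuclei: *Pklr* in 4.71% (4.18–5.29) and 18.8% (17.6–20.0), *Acaca* in 22.7% (21.7–23.8) and 44.6% (43.1–46.2), *Fasn* in 7.12% (6.46–7.81) and 15.5% (14.4–16.7). At so few UMIs per nucleus a higher level by itself gives more positive nuclei. These shares therefore cannot tell whether few or many nuclei carried the difference. *Thrsp* was found in 35.5% (34.2–36.7) and 56.6% (55.1–58.1), *Srebf1* in 36.6% (35.3–37.8) and 52.0% (50.5–53.6), and *Scd1* in 40.2% (38.9–41.5) and 57.3% (55.8–58.8). *Elovl6* differed least beside *Mlxipl*, with 13.8% (12.97–14.8) and 15.4% (14.4–16.6). *Acacb* was detected in 4.82% and 10.6% of nuclei, and *Acly* in 3.25% and 5.14%. Without thinning, the shares were 16.4% and 36.9% for *Pklr* and 58.8% and 74.6% for *Acaca*.

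Endothelial nuclei were taken for comparison, as cells not known for this program. They were shallow, with median depths of 1340.5 and 962.5 UMIs, so that 92 and 33 of them reached 2000. *Mlxipl* was detected in 2 of the 92 (2.17%) and in 0 of the 33, which by 3 counts allows a share of nuclei with a UMI of up to 9.09%. *Pklr* was detected in 0 of the 92 (up to 3.26% by the same rule) and in 1 of the 33 (3.03%). *Scd1* stood out, with 29.3% (20.3–39.8) and 45.5% (28.1–63.6) of endothelial nuclei positive, not far under the hepatocyte shares.

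The hepatocytes were next divided by position in the lobule. Zone 3 nuclei, next to the central vein, were those in which *Glul* and *Slc1a2* together made up at least 0.1% of a nucleus's counts: 1093 with the Flox label (18.8%) and 764 with the HKO label (17.4%). All 9 pericentral markers were higher and all 10 periportal markers lower in them, in both libraries. Zone 3 nuclei were shallower than the other hepatocytes, with median depths of 6367 against 7662 and 4952 against 5980.5 UMIs.

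Lipogenic genes did not share a zone. In the library labelled Flox, 2 of the 10 were at least 1.5-fold higher in zone 3 (against 4.43% of the 10485 genes tested) and 3 were lower (against 6.21%). In that labelled HKO, 3 were higher (against 3.82% of 9434 genes) and 2 were lower (against 5.14%). *Thrsp* was past the fold in zone 3 in both libraries, at 641 (622–660) in zone 3 against 355 (350–361) elsewhere in the Flox-labelled library, a ratio of 1.80 (1.74–1.86). HKO-labelled nuclei had 1112 (1080–1145) against 685 (675–696), a ratio of 1.62 (1.57–1.68). *Elovl6* was higher in zone 3 with ratios of 1.496 (1.38–1.62) and 1.53 (1.38–1.68), *Acacb* with 1.58 (1.38–1.81) and 1.48 (1.30–1.67), and *Mlxipl* with 1.22 in both. *Fasn* had 1.46 (1.30–1.65) with the Flox label and, the highest of the 10 in that library, 2.06 (1.88–2.25) with the HKO label. Several of these stood close to the 1.5-fold line, so that the counts moved with small changes of method.

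*Srebf1* had the opposite pattern to *Mlxipl*. It was lower in zone 3 in both libraries, at 158 (149–167) against 265 (259–270) and at 273 (257–290) against 440 (431–449), ratios of 0.596 (0.560–0.634) and 0.621 (0.583–0.661). *Acly* was lower there as well, with 5.21 (3.67–7.18) against 18.4 (17.0–19.8) in the Flox-labelled library and 17.6 (13.7–22.2) against 27.0 (24.96–29.3) in the HKO-labelled one. The transcripts of the factors thus differed between zones in contrary directions, by more than counting error in each library.

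The ratio between the libraries differed between zones for some genes. *Scd1* was 2.91-fold (2.73–3.11) higher in zone 3 of the library labelled HKO and 1.80-fold (1.76–1.84) higher in the other hepatocytes. Its zone ratio was 0.600 (0.568–0.634) with the Flox label and 0.972 (0.931–1.02) with the HKO label, a ratio of ratios of 1.62 (1.51–1.74). *Fasn* was 3.35-fold (2.94–3.83) higher in zone 3 and 2.38-fold (2.22–2.56) elsewhere, with a ratio of ratios of 1.41 (1.21–1.63). The greatest shift was that of *Acly*, 3.37-fold (2.24–5.16) against 1.47-fold (1.32–1.64), ratio of ratios 2.29 (1.52–3.46), though from 37 and 71 zone 3 UMIs. *Acaca* was 2.86-fold (2.64–3.11) and 2.40-fold (2.31–2.49) higher, with 1.19 (1.09–1.31). *Thrsp* went the other way, 1.74-fold (1.66–1.81) in zone 3 and 1.93-fold (1.88–1.97) elsewhere, with 0.900 (0.859–0.944). *Srebf1*, *Mlxipl*, *Acacb*, *Elovl6* and *Pklr* had ratios of ratios between 0.933 and 1.17, with intervals that included 1. With 1 library per genotype, none of these differences has a replicate check.

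A finer order was obtained by ranking the hepatocytes outside zone 3 on their share of periportal markers and cutting them into 4 groups of equal size, called quartiles here. This split was chosen after the values were seen. The share is of summed UMIs, and *Pck1*, a gluconeogenic gene, gave the most of them. Outside zone 3 it had 2902 and 3575 CPM, against 503 and 509 for *Uroc1*, the next highest of the 10 markers. The order therefore leans on *Pck1* and is not position in the lobule alone. With the HKO label, 8 of the 10 genes were lower in the most periportal quartile than in the least, against 59.7% of the 6965 genes tested, and with the Flox label 5 were, against 48.3% of 8582. *Acaca* went from 439 in the least to 233 in the most periportal quartile of the HKO-labelled nuclei, a ratio of 0.531 (0.497–0.568), whereas in the Flox-labelled ones it went from 118 to 142, a ratio of 1.20 (1.11–1.31). *Pklr* went from 149 to 82.6 with the HKO label (0.554, 0.494–0.621) and from 21.1 to 39.2 with the Flox label (1.86, 1.56–2.21). These genes had gradients of opposite direction in the libraries, and their ratios of ratios were 0.441 for *Acaca* and 0.299 for *Pklr*.

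*Fasn*, *Elovl6* and *Scd1* were lower in the most periportal quartile of the HKO-labelled nuclei. *Fasn* had quartile ratios of 0.459 (0.401–0.526) with the HKO label and 0.875 (0.742–1.03) with the Flox label, and *Elovl6* had 0.503 (0.440–0.575) and 0.938 (0.842–1.05). *Scd1* had 0.610 (0.581–0.641) and 0.922 (0.874–0.972), and with the Flox label its levels from the least to the most periportal quartile were 318, 357, 382 and 293 CPM, highest in the middle. In the most periportal quartile *Elovl6* was lower in the HKO-labelled library, at 57.6 (51.7–63.9) CPM against 70.9 (65.4–76.9), the reverse of its direction over all hepatocytes. *Srebf1* and *Acly* were higher in the most than in the least periportal quartile in both, *Srebf1* with ratios of 1.21 (1.14–1.28) and 1.24 (1.17–1.31). Median depth ran from 8268 UMIs in the least to 6781.5 in the most periportal quartile with the Flox label, and from 5399 to 6224 with the HKO label. The part of depth and of *Pck1* in these gradients was not tested.

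**Figure D2:**
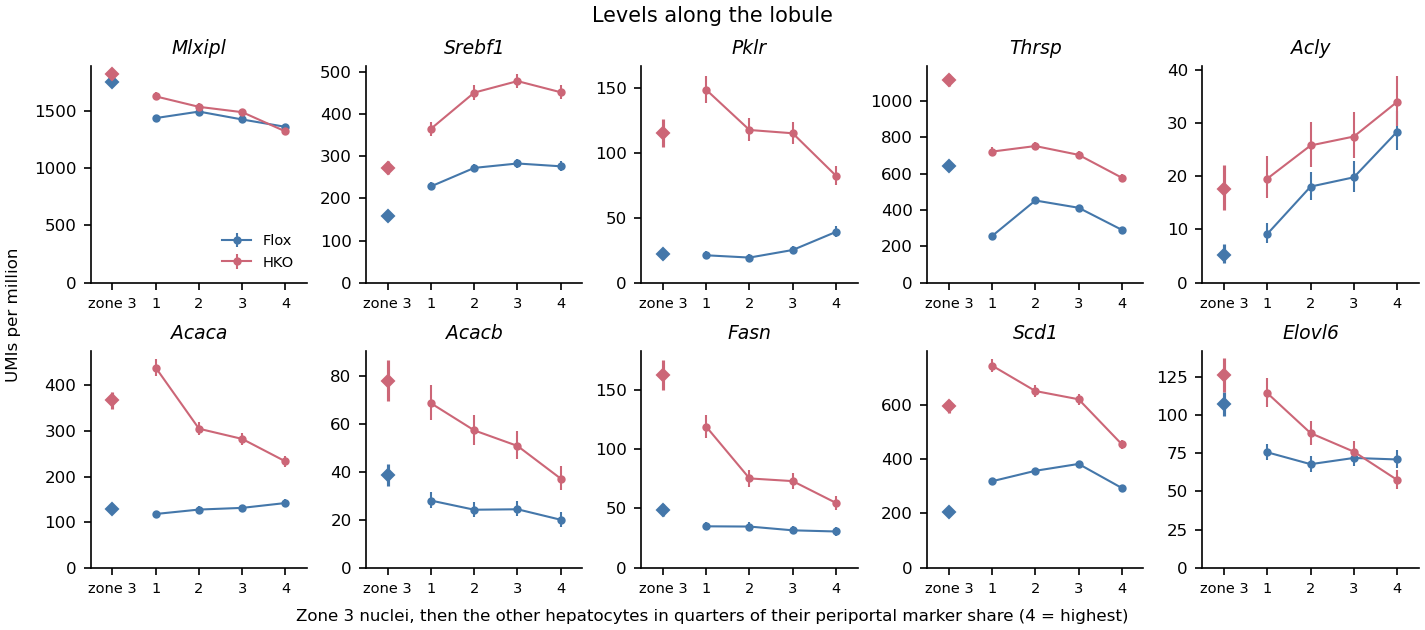
Level of each gene (CPM, axis from 0) in zone 3 nuclei (diamonds) and in the other hepatocytes by quartiles of their periportal marker share (circles joined by lines, 4 the most periportal), for the library labelled Flox (blue) and that labelled HKO (red). Bars are 95% counting intervals. *Acaca*, *Pklr*, *Fasn* and *Elovl6* fall from quartile 1 to 4 in red and not, or less, in blue, while *Srebf1* and *Acly* are higher at 4 than at 1 in both.

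Cell types were compared within each library, for the 7 types with at least 50 nuclei in both. Of the 10 genes, 7 had their highest level in hepatocytes with the Flox label and all 10 with the HKO label, 9 when doublets were kept. Of all genes tested, 20.6% and 21.1% were highest in hepatocytes. Some members were near ties: *Acaca* was at 130 CPM in HSCs against 129 in Flox-labelled hepatocytes, and HKO-labelled hepatocytes had 608 of *Scd1* against 606 in B cells and 25.6 of *Acly* against 24.7 in macrophages. Free hepatocyte RNA was judged from *Apob* and *Cps1*, hepatocyte genes for apolipoprotein B and for the first step of the urea cycle. Outside hepatocytes, *Apob* stood at 6.86% to 18.0% of its hepatocyte level and *Cps1* at 1.71% to 8.99%. *Cps1* itself is periportal. Both genes are among the hepatocyte markers of the calling rule, and a nucleus that reached the limit of these markers could not be another type. Their low shares outside hepatocytes were therefore partly set by that rule. *Alb*, the albumin transcript, is outside it and stood at 35.3% to 103% with the Flox label and 29.6% to 51.2% with the HKO label.

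*Mlxipl* and *Thrsp* were below the share of *Apob* in every other type: *Mlxipl* had 1.16% to 9.31% of its hepatocyte level and *Thrsp* 0 to 4.502%. Against *Cps1* this did not always hold. In cholangiocytes *Mlxipl* was at 9.31% against 7.91% with the Flox label and at 8.94% against 4.68% with the HKO label. Both genes also exceeded *Cps1* in Flox-labelled T cells, from 5 or fewer UMIs. *Srebf1*, with 10.6% to 48.3%, was somewhat above the share of *Apob* but below that of *Alb* in every other type. Its highest level outside hepatocytes was in cholangiocytes with the Flox label, at 120 (73.2–185) CPM from 20 UMIs. *Pklr* and *Acacb* rested on 22 or fewer UMIs in each other type, and *Pklr* was at 0 in Flox-labelled macrophages, which by 3 counts allows up to 2.45 CPM. Between the libraries, *Mlxipl* had ratios of HKO over Flox of 2.68 (1.78–4.13) in HSCs and 2.66 (1.63–4.52) in macrophages. Endothelial nuclei had 1.49 (0.949–2.37) and cholangiocytes 0.995 (0.609–1.68), intervals that included 1. The part of free hepatocyte RNA in these *Mlxipl* ratios was not tested.

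*Acaca* and *Fasn* reached levels outside hepatocytes that differed between cell types. Hepatic stellate cells (HSCs), the retinoid-storing cells that become myofibroblasts in MASH, had 130 (113–150) CPM of *Acaca* in the library labelled Flox, where hepatocytes had 129. In the library labelled HKO, HSCs had 106 (90.9–122) and hepatocytes 318. HSCs exceeded endothelial nuclei by 3.21-fold (2.33–4.51) and 1.73-fold (1.32–2.28) for *Acaca*, and by 6.01-fold (2.13–23.4) and 2.56-fold (1.44–4.78) for *Fasn*. Cholangiocytes had 120 (73.2–185) and 85.8 (61.3–117) CPM of *Acaca* and 18.0 (3.71–52.6) and 40.7 (24.5–63.6) of *Fasn*, from 3 to 40 UMIs, and their intervals overlapped those of HSCs. Between the libraries, *Acaca* in HSCs had a ratio of 0.812 (0.660–0.997), so that the higher *Acaca* of the HKO-labelled hepatocytes was not seen in HSCs. Endothelial nuclei had a ratio of 1.51 (1.04–2.22) for *Acaca*, and macrophages 1.71 (1.24–2.40). *Apob* stood at 11.3% and 11.8% of its hepatocyte level in endothelial nuclei and at 6.86% and 8.96% in macrophages. The part of free hepatocyte RNA in these 2 *Acaca* ratios was not tested. *Acly*, at 16.3 in Flox-labelled hepatocytes, was at 29.5 (20.6–40.8) in macrophages and 10.4 (5.93–16.8) in HSCs. T cells had its highest value at 54.3, but from 7 UMIs.

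*Scd1* was spread over all types. Its level outside hepatocytes was 54.6% to 139% of the hepatocyte level with the Flox label and 52.2% to 99.8% with the HKO label, far above the shares of *Apob* and *Cps1*. *Alb*, the albumin transcript, was spread in the same way, with 35.3% to 103% and 29.6% to 51.2%. *Scd1* was also higher with the HKO label in each type, by 1.94-fold (1.69–2.23) in endothelial nuclei, 1.86-fold (1.62–2.15) in macrophages and 1.58-fold (1.38–1.80) in HSCs, beside 1.91-fold in hepatocytes. In B cells the interval of the ratio included 1 (1.37, 0.811–2.35). Whether these UMIs were made in the other cells or came from free RNA was not tested. *Scd2*, the desaturase of other tissues, was the reverse, at 0.543 and 1.11 in hepatocytes and 34.7 to 147 in the other types.

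**Figure D3:**
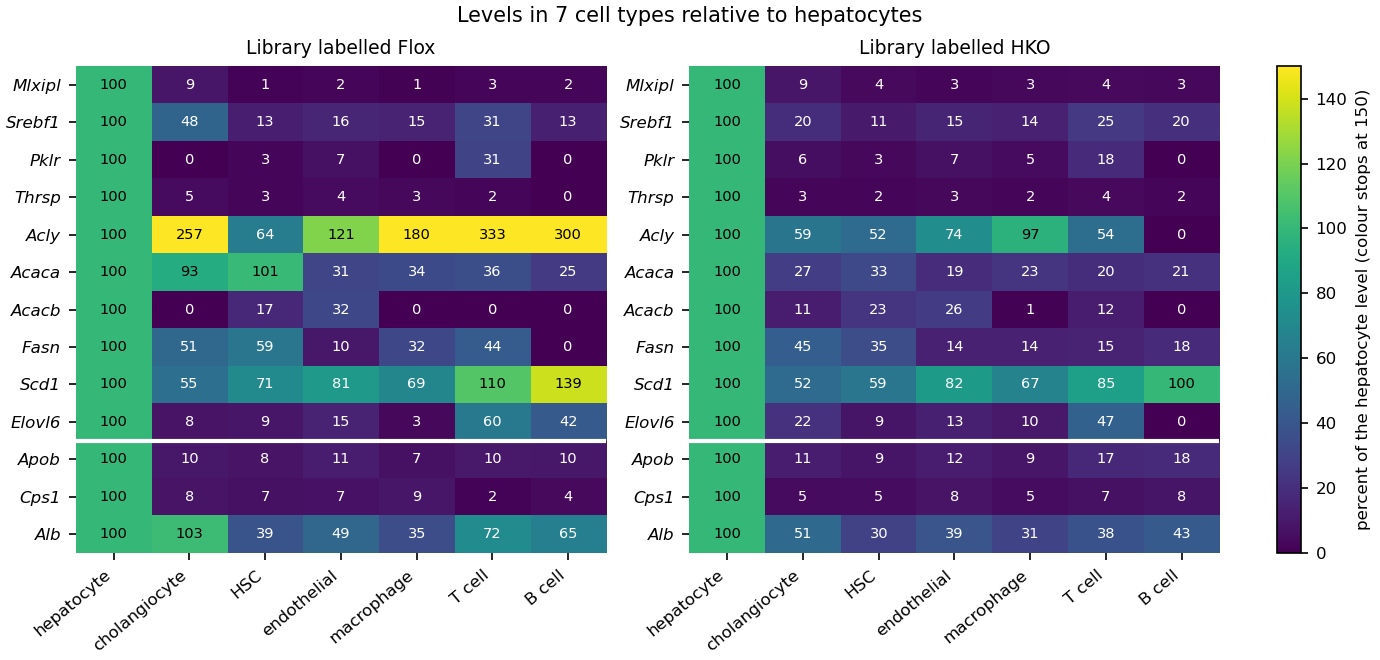
Level of each gene in 7 cell types as a percent of its level in hepatocytes of the same library (numbers and colour, which stops at 150), with *Apob*, *Cps1* and *Alb* below the white line for comparison. *Mlxipl* and *Thrsp* stay under 10% outside hepatocytes, while *Scd1* and *Alb* do not fall under 29%.

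Whether the genes vary together from nucleus to nucleus was measured in hepatocytes thinned to 2000 UMIs, 5748 and 4205 nuclei. Each gene was compared between the upper and lower quartile of nuclei ranked by the summed UMIs of the other 9. In both libraries 4 of the 10 genes were at least 1.5-fold higher in the upper quartile. Among the other genes, 3.98% of 7158 and 2.72% of 5983 exceeded that fold upward and 2.54% and 2.22% downward between quartiles of the 10 summed. *Mlxipl* gave the most UMIs to the sum, with a mean of 3.004 of 5.62 and 3.20 of 8.28 per nucleus.

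*Elovl6*, *Acacb* and *Fasn* were past the fold in both libraries. *Elovl6* was 1.64-fold (1.36–1.98) and 1.79-fold (1.45–2.21) higher in the upper quartile, *Acacb* 1.98-fold (1.40–2.83) and 1.83-fold (1.40–2.40), and *Fasn* 1.57-fold (1.20–2.08) and 2.38-fold (1.92–2.95). *Thrsp* was 2.53-fold (2.32–2.77) higher with the Flox label and 1.499-fold (1.39–1.61) with the HKO label, which fell just short of the line. *Pklr* had 1.18 (0.852–1.64) and 1.53 (1.27–1.84). *Acaca* had a ratio of 1.07 (0.922–1.23) with the Flox label and 1.40 (1.26–1.55) with the HKO label, and these intervals did not overlap. The rankings differ between the libraries, however, since the 10 genes summed to a mean of 5.62 and 8.28 UMIs per nucleus. *Acly* was lower rather than higher in the upper quartile with the Flox label, at 0.688 (0.428–1.09), an interval that included 1. *Srebf1* and *Mlxipl* had 1.23 to 1.30 in both libraries, and *Scd1* 1.14 (1.04–1.24) and 1.30 (1.21–1.41).

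**Figure D4:**
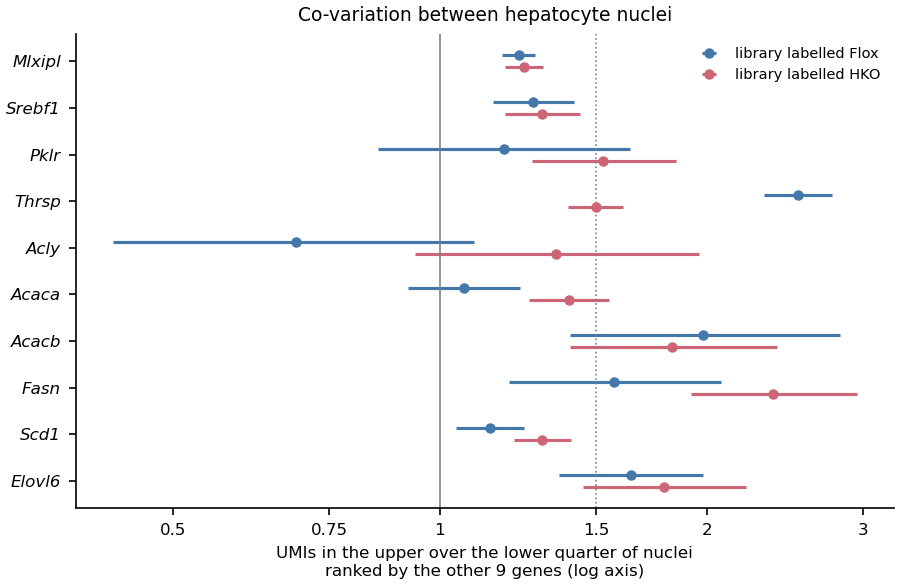
Ratio of UMIs between the upper and lower quartile of hepatocyte nuclei ranked by the other 9 genes (log axis), for the library labelled Flox (blue) and that labelled HKO (red), with 95% counting intervals and lines at 1 and 1.5. *Thrsp*, *Acacb*, *Fasn* and *Elovl6* are past 1.5 in blue, and *Pklr*, *Acacb*, *Fasn* and *Elovl6* in red.

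The ends of the ranking also differed in zone. For quartiles of the 10 summed, zone 3 nuclei made up 14.0% of the lower and 24.5% of the upper quartile with the Flox label, and 10.4% and 23.2% with the HKO label. Median depth before thinning was 7649 and 7230 UMIs, and 6320 and 5478. Markers of other cell types were at 244 and 211 CPM in the lower and upper end with the Flox label and at 220 and 231 with the HKO label. Hepatocyte markers were higher in the upper end, at 6929 and 8444 CPM and at 7000 and 8340, and so was the mitochondrial share of UMIs, at 0.232% and 0.287% and at 0.2002% and 0.374%. The part of zone, depth, hepatocyte markers and mitochondrial share in the co-variation was not tested, beyond leaving zone 3 out. Without zone 3 the same number of genes, 4 in each library, passed 1.5-fold, and *Elovl6* had ratios of 1.74 and 2.12 and *Fasn* 1.53 and 3.23. *Acacb* with the HKO label fell to 1.49. Leaving zone 3 out does not remove position among the remaining hepatocytes. The pericentral gene *Cyp2e1* kept ratios of 2.51 and 2.17 there between quartiles of the 10 summed.

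Pairwise correlations between nuclei were computed with the counting variance removed, for genes with at least 0.1 UMIs per thinned nucleus. Over 15 pairs of 6 genes in the library labelled Flox the median was 0.0988, and over 36 pairs of 9 genes in that labelled HKO it was 0.161. *Mlxipl* and *Thrsp* had the highest value with the Flox label, 0.375, and 0.216 with the HKO label. *Acaca* and *Fasn* had the highest with the HKO label, 0.379, followed by *Acaca* and *Acacb* with 0.360 and *Acaca* and *Pklr* with 0.338. *Srebf1* was close to 0 with *Elovl6* in both (−0.0657 and −0.00701). The nuclei of a pair share a library and a fixed depth, the uncorrected correlations had medians of 0.0229 and 0.0453, and no value this weak was taken as a finding.

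Nuclei also differed beyond counting error in single genes. The coefficient of variation left after the counting variance was removed was lowest for *Mlxipl*, 33.3% and 30.8%. It was high for *Thrsp*, 159% and 111%, and for *Scd1*, 170% and 135%. *Pklr* and *Fasn*, at 0.250 and 0.186 UMIs per thinned nucleus with the HKO label, had 131% and 115% there. For *Srebf1* it was 64.3% and 62.3%, and *Acaca* went from 46.7% to 75.1%.

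Among 5900 other genes with at least 200 UMIs in both libraries, the 8 with the highest ratio of the upper over the lower quartile in both were *Cyp2c29*, *Elovl5*, *Cyp3a11*, *Tox*, *Gm3289*, *Rgs16*, *Cyp2c38* and *Cyp2e1*. *Elovl5*, which elongates polyunsaturated fatty acids, had ratios of 2.34 and 2.43, and *Rgs16*, a regulator of G protein signalling, 2.93 and 2.05. The cytochromes *Cyp2c29* and *Cyp2e1*, which are pericentral, had 2.96 and 2.43 and 2.12 and 2.00. Without zone 3 nuclei 7 of the 8 kept ratios of 2.04 or more in both libraries, and *Gm3289* did not, at 0.833 with the Flox label. The 4 genes with the lowest ratios were *Cryl1*, *1810064F22Rik*, *Slco2a1* and *Ppl*, with *Cryl1* at 0.326 and 0.315.

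Neighbouring pathways were read from 8 lists of 90 genes, 83 of which had at least 200 hepatocyte UMIs. Of these, 22 were at least 1.5-fold higher with the HKO label (background 7.19%) and 3 lower (9.77%). Their median log2 ratio was 0.24, against 0.92 for the 10 lipogenic genes.

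Of the machinery that controls SREBP and ChREBP, 1 of 17 genes was higher past the fold (background 7.19%) and none lower (9.77%). The median log2 ratio was 0.11, over ratios on both sides of 1, with 12 of the 17 above it. The gene past the fold was *Insig1*, an anchor of the SREBP complex and itself an SREBP target. It had 93.6 and 143 CPM and a ratio of 1.53 (1.46–1.60). *Insig2*, its liver counterpart, was at 251 and 169, a ratio of 0.672 (0.650–0.696), the lowest of the list. *Scap*, the escort of SREBP, had a ratio of 0.732 (0.685–0.783), *Mlx*, the partner of ChREBP, 0.743 (0.690–0.801), and *Nr1h3*, the gene of liver X receptor alpha, 1.06 (0.994–1.13). Other liver X receptor targets gave 0 of 5 past the fold in either direction, from *Abcg5* at 1.18 to *Abcg1* at 0.766.

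Other ChREBP targets gave 3 of 7 higher and none lower. *Arrdc4* was highest, at 1.88 (1.58–2.24) from 5.41 and 10.2 CPM, and *Gpd1* lowest, at 0.778 (0.711–0.850). *Txnip*, a target that responds to glucose in many cells, was at 111 and 97.8, a ratio of 0.882 (0.842–0.925), so that it did not move with *Pklr*. Of sugar entry and glycolysis, 3 of 14 were higher and 1 was lower. *Gpi1*, a glucose phosphate isomerase, had a ratio of 1.74 (1.63–1.86), and the fructose carrier *Slc2a5* 0.484 (0.357–0.647) at only 4.58 and 2.22 CPM.

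The supply of NADPH and citrate gave 3 of 8 higher and none lower. *Me1*, the malic enzyme that makes NADPH for lipogenesis, went from 18.6 to 41.4, a ratio of 2.23 (2.04–2.44), and *Acss2* was lowest at 0.924. Of the other elongases and desaturases, 3 of 11 were higher and 1 was lower, with a median log2 ratio of −0.07. *Fads1*, of polyunsaturated fatty acid synthesis, had 1.95 (1.87–2.05) and *Elovl3*, an elongase of very long chains, 0.423 (0.381–0.468). *Scd2*, at 0.543 and 1.11 CPM in hepatocytes, was under the count minimum.

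Fatty acid activation and triglyceride assembly gave 2 of 10 higher and 1 lower. *Gpam*, which starts glycerolipid synthesis, had 1.83 (1.77–1.89), *Lpin1*, a phosphatidate phosphatase, 2.33 (2.27–2.40), and *Agpat2*, the acyltransferase between them, 0.496 (0.467–0.526). *Pnpla3* had only 0.369 and 1.55 CPM and was under the count minimum. The SREBP2 targets of cholesterol synthesis and uptake were the list most like the lipogenic genes: 7 of 11 were higher, none lower, and the median log2 ratio was 0.76. *Fdps*, a farnesyl diphosphate synthase, went from 14.2 to 62.2, a ratio of 4.37 (3.99–4.79), and *Dhcr7* was lowest at 1.10 (0.996–1.21).

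**Figure D5:**
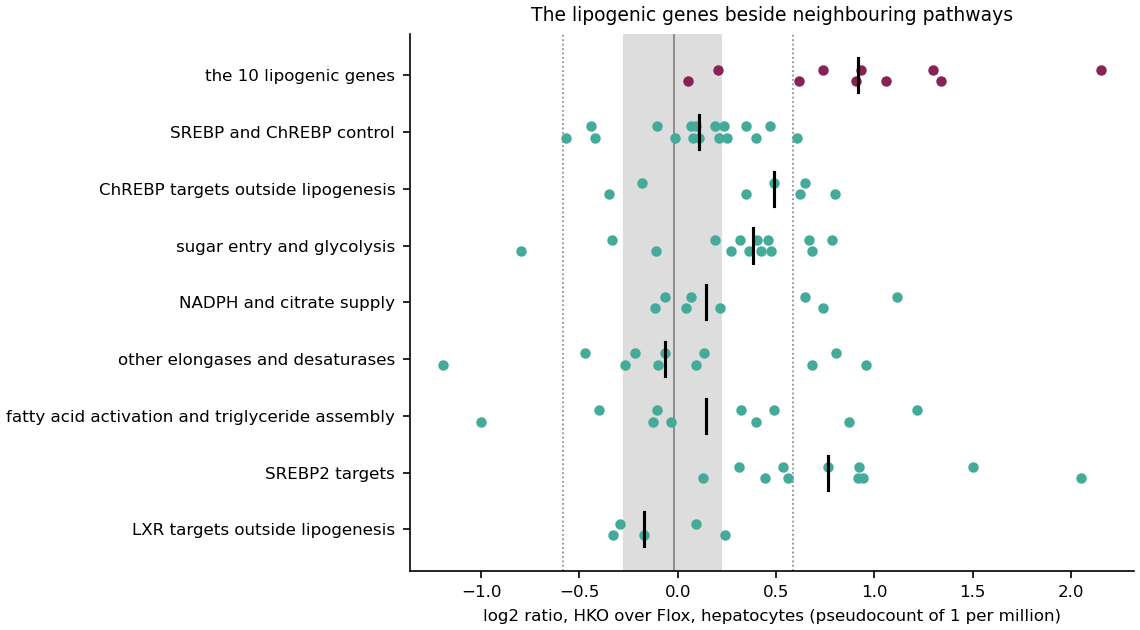
Log2 ratio of HKO over Flox in hepatocytes for the 10 lipogenic genes (purple) and the measured genes of 8 neighbouring lists (green), with each list's median as a black bar. The grey band spans the lower to upper quartile of all 11221 genes, the grey line their median of −0.02, and dotted lines mark 1.5-fold either way. The medians of the lipogenic genes (0.92) and of the SREBP2 targets (0.76) lie past the upper dotted line.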

How the data were processed

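The authors deposited unnormalized UMI counts for every gene and barcode of each library, from sorted nuclei, made with Cell Ranger 8.0.1 on GRCm38, as the submitters' notes give it, with intronic reads excluded. The 10 genes, the pathway lists and the alternatives were chosen with earlier results of these data known. Nuclei with at least 300 genes were kept, and the highest-scoring doublets by Scrublet in scanpy 1.11.5 were removed, 701 and 920. A nucleus was a hepatocyte when hepatocyte markers reached 0.3% of its UMIs with 3 or more and no other type's markers reached 0.2% with 2 or more. It could be another type only when hepatocyte markers missed their limit. That type's markers then had to reach 0.2% with 2 or more and stand at least 2-fold above the next. These limits were set after the distributions were seen. Nuclei that could not be called in this way, 372 and 1179, stayed unassigned. UMIs were summed per library and type and divided by their total. Log2 ratios carry a pseudocount of 1 CPM, other ratios none.

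Intervals are exact Poisson for levels, conditional binomial for ratios, Clopper-Pearson for shares, and a normal approximation on the log scale for ratios of ratios. A gene counted as past the fold at 1.5-fold, and no test was made, with 1 library per group. TMM factors came from edgeR 4.0.16. Gene positions came from the GENCODE annotation of GRCm38. Calculations were tested on simulated data. Named outside the 10 were the highest and lowest gene of each list, 11 genes of interest set by name, of which 1 is not reported here, and the 8 most like and 4 least like genes. Some further genes in the closing section were chosen after their values were seen.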

Additional observations from a re-analysis of the deposited data

Results flagged for a closer look

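For 2 genes the zone ratio lay on either side of 1 in the libraries, and neither difference was tested, since each genotype had 1 library. *Pklr* in zone 3 over the other hepatocytes was 0.858 (0.720–1.02) with the Flox label and 1.01 (0.909–1.11) with the HKO label. Its ratio of ratios was 1.17 (0.964–1.43), an interval that included 1. *Acaca* was 0.994 (0.925–1.07) and 1.19 (1.12–1.25), a ratio of ratios of 1.19 (1.09–1.31). Of these zone ratios, only that of *Acaca* with the HKO label had an interval without 1, so a change of direction was not shown.

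From the least to the most periportal quartile of the hepatocytes outside zone 3, 3 genes went in opposite directions, again untested. *Pklr* had quartile ratios of 1.86 with the Flox label and 0.554 with the HKO label, a ratio of ratios of 0.299 (0.243–0.367). *Acaca* had 1.20 and 0.531, a ratio of ratios of 0.441 (0.397–0.489). *Thrsp* had 1.13 and 0.801, a ratio of ratios of 0.707 (0.658–0.760), and its highest quartiles were the middle ones in the Flox-labelled nuclei.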

How the results depend on the processing

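The 8 genes higher in HKO-labelled hepatocytes numbered 7 or 8 under 10 alternatives (7 with zone 3 left out or a pseudocount of 10 CPM, where *Acly* was 1.47 and 1.35), with no ratio reversed. Counts between zones were less steady. With the Flox label, the 2 genes higher in zone 3 became 4 after thinning to 2000 UMIs, 4 with the mean share per nucleus, 4 against the most periportal quartile and 1 with a pseudocount of 10 CPM. With the HKO label, the 2 lower genes became 0 after thinning, 1 with the mean share per nucleus and 1 with that pseudocount, and the 3 higher genes became 5 against the most periportal quartile. Thinning left *Srebf1* at 0.669 and *Acly* at 0.744, both short of the fold. Counts by cell type and of co-variation stayed within 1.5 times, also with *Mlxipl* left out of the sum, an alternative chosen after seeing the data. With no UMI minimum, 19.7% of 20186 genes were higher and 21.1% lower by 1.5-fold. TMM factors moved all log2 ratios by −0.02.

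No paired analysis was possible because each genotype had 1 library. Depth limits the other cell types most: B cells, T cells and cholangiocytes often rest on fewer than 20 UMIs per gene.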

Other observations

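Some genes of the neighbouring lists varied with the 10 lipogenic genes between hepatocyte nuclei. They were chosen after their values were seen, and the quartiles are those of the 10 genes summed. *Fdps* was 3.36-fold (2.56–4.45) higher in the upper quartile with the HKO label and had under 200 thinned UMIs with the Flox label. *Hmgcs1*, of the same cholesterol pathway, was 1.79-fold (1.29–2.52) and 1.92-fold (1.503–2.47) higher. *Gpam* had ratios of 1.17 (1.02–1.33) and 1.65 (1.48–1.85), and *Me1* 1.34 (0.904–2.00) and 1.84 (1.38–2.47). *Insig2*, which had a ratio of 0.672 between the libraries, was 1.94-fold (1.75–2.16) and 1.49-fold (1.28–1.74) higher in the upper quartile. *Elovl3* was 4.17-fold (3.08–5.74) higher with the Flox label and had under 200 thinned UMIs with the HKO label, so that no ratio was taken there. *Themis* was 1.43-fold (1.25–1.64) and 1.40-fold (1.23–1.59) higher in the upper quartile. Zone 3 nuclei were more frequent in that quartile, and their part in these values was not tested.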
